A study of Drosophila melanogaster with 18 samples.

Results

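Wing imaginal discs that expressed wild type Tip60 for 78 h were compared with control discs kept the same way, across all genes. The comparison used 3 Tip60wt and 3 control libraries, 6 of the 18 in the series. The 3 libraries of discs that expressed a dominant negative Tip60 (Tip60dn) for the same 78 h were used to separate differences that both transgene arms had against the control from differences seen with the wild type protein alone. A wing imaginal disc is the larval epithelial sac that becomes the adult wing and part of the thorax, and the discs came from wandering Drosophila melanogaster larvae in the third instar.

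The groups were Tip60wt at 78 h (wild type Tip60), Tip60dn at 78 h (dominant negative Tip60) and control at 78 h, with the matching 48 h groups used as separate libraries. All groups, the control included, received a heat shock at 37 °C for 30 min that induced overlapping clones, were held at 18 °C to keep the transgene silent and then stood at 28 °C for the stated hours. Each library pooled 40 discs, and polyadenylated RNA was made into directional libraries. The sources used here do not give the driver, the share of disc cells that carried a clone, the parental lines, the number of insertions per transgene, the sex of the larvae or what the control flies carried. An effect of Tip60 and an effect of the Tip60wt line's own chromosomes therefore cannot be told apart from Tip60wt and control alone. Nothing says that replicates of a group came from separate crosses, so p-values measure the spread between these libraries, which may be technical.

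Tip60 is a histone acetyltransferase of the MYST family and the catalytic subunit of the NuA4 complex, known in flies as the Tip60 complex. It acetylates histones H4 and H2A, takes part in exchange of the variant H2Av after DNA damage, and acts with chromatin remodelling subunits such as dom and scaffold subunits such as Nipped-A. In flies Tip60 is best known for roles in DNA repair, neuronal function and gene activation and repression at many promoters.

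The deposited values were whole counts per gene, with 72693686 to 105716567 counts in a library at 78 h. The fitted table held 10598 genes at 78 h, and the common biological coefficient of variation was 0.192. All 11 wing disc epithelium markers stood at 10 CPM or more (counts per 1e6, with the trimmed mean of M values factors) in every group, with summed levels of 3834 to 4009 CPM in Tip60wt, 4114 to 4486 CPM in Tip60dn and 4058 to 4093 CPM in control. Control replicate 1 stood apart in salivary gland genes, whose sum over 12 markers was 206 to 211 CPM in Tip60wt and 238 to 355 CPM in Tip60dn, against 3049, 230 and 226 CPM in control. The glue gene Sgs3, made by salivary glands, had 11.6, 4.98 and 1.93 CPM in Tip60wt and 10.3, 32.5 and 56.9 CPM in Tip60dn, against 836, 16.6 and 6.10 CPM in control. Counts are therefore also given without control replicate 1. In bulk discs, fewer cells of a type and less RNA per cell cannot be told apart.

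The targeted gene checked the labels of the transgene arms against control, but not Tip60wt against Tip60dn. Tip60 (FBgn0026080, on X from 4114800 to 4117487, minus strand, build BDGP6) had 984, 1764 and 1990 CPM in the Tip60wt libraries and 1644, 2176 and 2429 CPM in the Tip60dn libraries, against 33.2, 44.9 and 38.3 CPM in control. Every library of both transgene arms lay far above every control library, and Tip60wt replicate 1 was the lowest of the 6 transgene libraries. The log2 fold change was 5.35 ± 0.29 (SE) for Tip60wt over control (adjusted p = 1.18e-05) and 5.75 ± 0.30 for Tip60dn over control. The Tip60wt level over the Tip60dn level was -0.40 ± 0.24 on the log2 scale (adjusted p = 0.223), which did not pass the threshold. Counts per gene do not separate transgene from endogenous transcripts. Of the Tip60 exons, 21.0% lie opposite the gene tyf, and the strand setting of the counting was not stated in any source used here. The eye colour gene w, carried by many transgenes as a marker, had 117, 128 and 129 CPM in Tip60wt and 141, 118 and 125 CPM in Tip60dn, against 108, 121 and 104 CPM in control, and it did not pass the test in Tip60wt (adjusted p = 0.255). The body colour gene y stood below 0.5 CPM in all 9 libraries.

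Few genes besides Tip60 differed much from control. Tip60wt against control called 431 of 10598 genes (4.07% of those tested), 222 of them higher (2.09%) and 209 lower (1.97%), at an adjusted p under 0.05 in edgeR's quasi-likelihood test with Benjamini-Hochberg adjustment over all genes tested. All adjusted p-values in this text come from that test unless another tool is named. Of the 431 genes, 134 differed by at least 2-fold (1.26% of those tested), and the median absolute log2 fold change of the called genes was 0.48. At an unadjusted p under 0.05 there were 2164 genes (20.4%). The median log2 fold change of all genes was 0.01, and the median absolute value was 0.11 for Tip60wt and 0.24 for Tip60dn. Tip60dn against control called 4683 genes (44.2%), 2378 higher (22.4%) and 2305 lower (21.7%). Under upper quartile scaling that split became 3146 higher and 1519 lower. Tip60wt against Tip60dn called 3900 genes (36.8%), 2031 higher (19.2%) and 1869 lower (17.6%), or 1239 higher and 2539 lower under upper quartile scaling.

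The number called in Tip60wt against control moved with single libraries. It was 203 without control replicate 1, 209 without control replicate 3, 210 without Tip60wt replicate 2 and 237 without Tip60wt replicate 3, and it was 981 without Tip60wt replicate 1, the library with the lowest Tip60 level.

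The 431 genes were then split by Tip60dn. A gene is shared where Tip60dn against control was called in the same direction, and it is seen in Tip60wt alone where it was not so called in Tip60dn and Tip60wt against Tip60dn was called in the direction of the Tip60wt difference. By this rule 272 genes (63.1% of the 431) were shared, 150 higher and 122 lower, and 145 (33.6%) were seen in Tip60wt alone, 64 higher and 81 lower. Another 14 genes fell in neither class. Both comparisons use the same 3 control libraries, so a control library that is off moves both. With Tip60dn against control at 48 h (39% of 10693 genes called), which shares no library with the 78 h comparison, in place of the 78 h one, 232 genes were shared and 151 were seen in Tip60wt alone. Without control replicate 1 the classes held 127 shared and 75 Tip60wt-alone genes, and without Tip60wt replicate 1 they held 631 and 311.

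The shared class requires a call in the same direction in both arms against the same control libraries, so its medians are partly set by the rule. The median log2 fold change, taken in the direction of Tip60wt, was 0.47 in Tip60wt and 0.57 in Tip60dn. The direct test of Tip60wt against Tip60dn was not called for 157 of the 272, which does not show that those are alike. It placed Tip60wt further from control than Tip60dn for 33 and Tip60dn further for 82. Of the 145 genes seen in Tip60wt alone the medians were 0.53 in Tip60wt and -0.05 in Tip60dn, values that the rule itself sets apart. Of these 145, 39 were called in Tip60dn in the opposite direction. They were 14 of the 64 higher in Tip60wt, where Tip60dn called 21.7% of all genes lower. The other 25 were among the 81 lower in Tip60wt, where Tip60dn called 22.4% of all genes higher. The class name therefore does not mean that a gene was unchanged in Tip60dn.

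**Figure D1:**
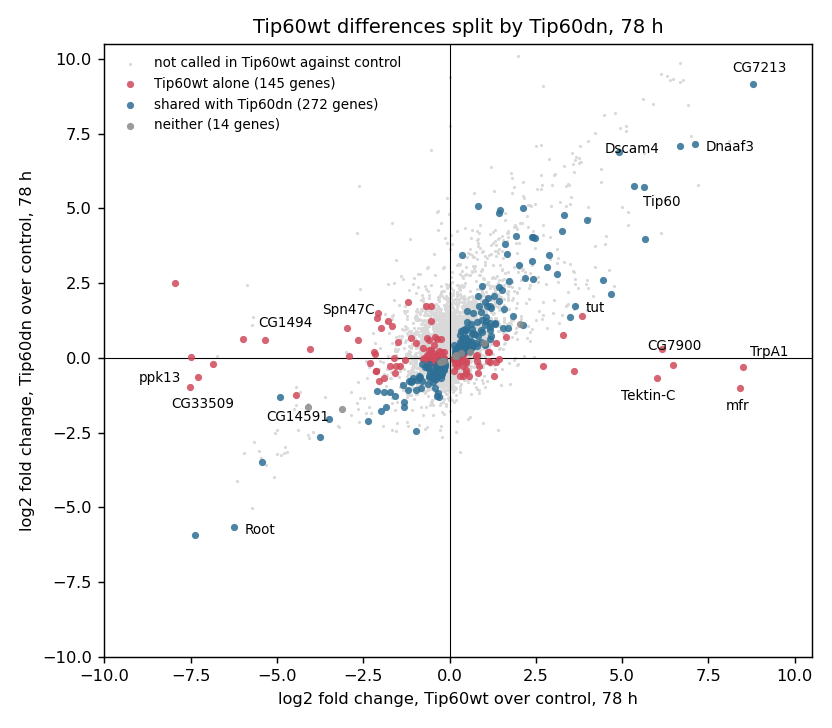
Each point is 1 of the genes tested at 78 h, placed by its log2 fold change in Tip60wt over control (horizontal) and Tip60dn over control (vertical), and coloured by class; 4 genes lie outside the axes. Shared genes such as Dscam4 and Root run along the diagonal. Of the genes seen in Tip60wt alone, TrpA1, mfr and ppk13 had Tip60dn log2 fold changes of -0.30, -1.02 and -0.63. Spn47C, of the same class, had 1.00. Both axes use the same 3 control libraries.

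The shared genes with the largest differences were near off in one state. Dscam4, a cell surface protein of the immunoglobulin family related to the neuronal self-recognition receptor Dscam1, had 86.3, 54.9 and 66.1 CPM in Tip60wt and 91.1, 89.4 and 96.1 CPM in Tip60dn, against 0.83, 0.66 and 0.51 CPM in control. Its log2 fold change was 6.68 ± 0.21 in Tip60wt (adjusted p = 3.93e-07) and 7.10 ± 0.21 in Tip60dn. The transgene libraries and the control libraries did not overlap. CG7213, which overlaps the start of Dscam4 on the opposite strand, had 7.11, 4.25 and 5.88 CPM in Tip60wt and 6.96, 6.78 and 8.25 CPM in Tip60dn, while its control libraries held 3 counts in all. Tip60wt was 496 times control by those counts (exact 95% counting interval 170 to 2410), and its adjusted p was 2.03e-05.

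Dnaaf3, a factor that helps assemble the dynein arms of motile cilia, had 5.94, 6.72 and 6.72 CPM in Tip60wt and 5.54, 7.35 and 7.09 CPM in Tip60dn, against 0.02, 0.08 and 0.03 CPM in control. Its log2 fold change was 7.10 ± 0.34 in Tip60wt (adjusted p = 4.25e-06) and 7.15 ± 0.34 in Tip60dn, and the Tip60wt and Tip60dn libraries overlapped, with a log2 difference of -0.04 ± 0.23. CG9121 was also higher in both arms, with 6.86, 11 and 8.87 CPM in Tip60wt and 5.55, 7.69 and 8.32 CPM in Tip60dn, against 1.06, 0.98 and 1.07 CPM in control, although 20.2% of its exons lie opposite CG33995. The gene tut, which with Bam and Bgcn limits divisions of male germline cells, did differ between the transgene arms. It had 19.0, 17.6 and 19.5 CPM in Tip60wt and 5.84, 4.67 and 4.56 CPM in Tip60dn, against 1.39, 1.61 and 1.56 CPM in control. Its Tip60wt level over its Tip60dn level was 1.89 ± 0.11 on the log2 scale (adjusted p = 7.08e-06).

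The largest shared loss among the named genes was Root, which encodes rootletin, the filament protein of the ciliary rootlet in sensory neurons. Root had 0.42, 0.36 and 0.53 CPM in Tip60wt and 0.57, 0.67 and 0.77 CPM in Tip60dn, against 34.1, 33.9 and 32.0 CPM in control. Its log2 fold change was -6.25 ± 0.15 in Tip60wt (adjusted p = 5.22e-08) and -5.64 ± 0.14 in Tip60dn. The Tip60wt libraries lay just below the Tip60dn ones (log2 difference -0.61 ± 0.15, adjusted p = 0.0117). CG14591 had 0.35, 0.22 and 0.25 CPM in Tip60wt and 3.42, 3.21 and 3.22 CPM in Tip60dn, against 7.38, 8.85 and 8.35 CPM in control. Here the 3 groups were all apart, with Tip60dn between the others, and Tip60wt lay below Tip60dn by a log2 difference of -3.58 ± 0.18 (adjusted p = 2.69e-06).

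The other 4 lowest shared genes by the naming rule had log2 fold changes between -1.83 and -1.32 in Tip60wt. CG17186 had 8.92, 10.8 and 10.3 CPM in Tip60wt and 11.6, 10.2 and 12.1 CPM in Tip60dn, against 35.6, 35.3 and 35.8 CPM in control. Mal-B2, a maltase, averaged 6.14 ± 1.01 CPM in Tip60wt and 7.68 ± 1.06 CPM in Tip60dn, against 18.5 ± 0.61 CPM in control (SD, n = 3 each). SoYb, a Tudor domain helicase of the germline piRNA pathway, averaged 7.43 ± 1.79 CPM in Tip60wt and 6.75 ± 0.93 CPM in Tip60dn, against 18.6 ± 1.08 CPM in control. CG33099 averaged 2.96 ± 0.65 CPM in Tip60wt and 2.34 ± 0.51 CPM in Tip60dn, against 7.42 ± 0.52 CPM in control. In none of the 4 was the direct test of Tip60wt against Tip60dn called, with adjusted p-values of 0.132, 0.0847, 0.558 and 0.203.

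**Figure D2:**
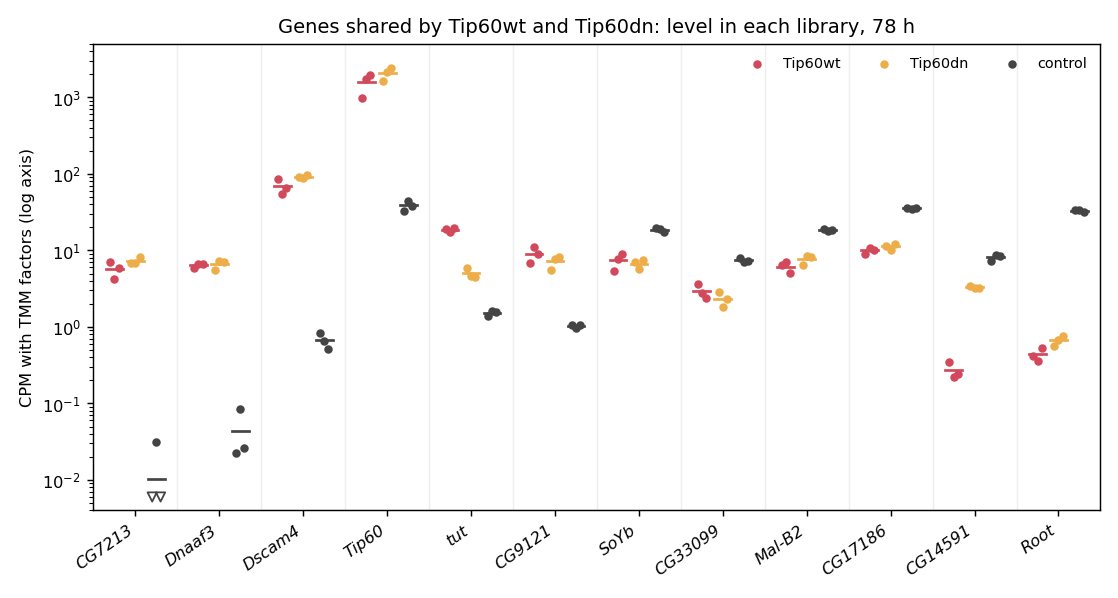
Level of the 6 highest and 6 lowest shared genes in each of the 9 libraries at 78 h, in CPM on a log axis; points are libraries, short lines are means of 3 libraries, and open triangles at the bottom are libraries with 0 counts. Tip60wt and Tip60dn points sit together for Dnaaf3, Mal-B2 and CG17186, while tut and CG14591 also separate Tip60wt from Tip60dn.

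Genes seen in Tip60wt alone included larger gains than Tip60 itself. TrpA1, a cation channel that senses heat and irritants, had 27.4, 73.6 and 66.1 CPM in Tip60wt, 0.18, 0.06 and 0.11 CPM in Tip60dn and 0.09, 0.27 and 0.08 CPM in control. The neighbouring gene mfr, a ferlin family protein needed in sperm for fertilization, had 48.6, 130 and 118 CPM in Tip60wt, 0.16, 0.10 and 0.15 CPM in Tip60dn and 0.19, 0.42 and 0.24 CPM in control. In both genes Tip60wt replicate 1 was the lowest of the 3, as it was for Tip60. The log2 fold changes over control were 8.50 ± 0.54 for TrpA1 (adjusted p = 2.78e-05) and 8.43 ± 0.47 for mfr (adjusted p = 1.19e-05). Against Tip60dn they were 8.80 and 9.45. With limma-voom the adjusted p was 0.0881 for TrpA1 and 0.0539 for mfr, above the 0.05 threshold, with log2 fold changes of 8.57 and 8.36.

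Tektin-C, a filament protein of ciliary and sperm tail microtubules, had 43.7, 47.9 and 48.9 CPM in Tip60wt, 0.42, 0.59 and 0.35 CPM in Tip60dn and 0.70, 1.01 and 0.42 CPM in control. CG7900 had 12.7, 10.9 and 10.4 CPM in Tip60wt, 0.03, 0.29 and 0.03 CPM in Tip60dn and 0.04, 0.19 and 0.14 CPM in control. These log2 fold changes over control were 6.01 ± 0.25 (adjusted p = 2.08e-06) for Tektin-C and 6.47 ± 0.73 (adjusted p = 0.00118) for CG7900, and the Tip60dn and control libraries of each gene overlapped. The remaining gains were smaller. Strica, a caspase, had 10.3, 13.6 and 12.6 CPM in Tip60wt, 4.43, 4.28 and 4.31 CPM in Tip60dn and 5.07, 3.78 and 4.56 CPM in control. Of its exons, 14.2% lie opposite Pngl. The serine synthesis enzyme phosphoserine phosphatase, encoded by aay, had 5.06, 8.24 and 7.94 CPM in Tip60wt, 4.21, 4.04 and 3.51 CPM in Tip60dn and 3.33, 2.20 and 2.83 CPM in control, a log2 fold change of 1.34 ± 0.21 over control (adjusted p = 0.00732).

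Among the genes given by the naming rule, losses seen in Tip60wt alone reached a log2 fold change of -7.53. The channel subunit gene ppk13, of the DEG/ENaC family, had 0.02, 0.12 and 0.17 CPM in Tip60wt, 11.2, 13.1 and 7.09 CPM in Tip60dn and 15.3, 17.6 and 15.5 CPM in control. CG33509, which lies beside ppk13, had 0, 0.11 and 0.03 CPM in Tip60wt, 4.85, 5.34 and 3.39 CPM in Tip60dn and 8.70, 9.66 and 8.09 CPM in control. The Tip60wt libraries of both genes lay far below all 6 others. Their log2 fold changes over control were -7.29 ± 0.41 for ppk13 (adjusted p = 1.19e-05) and -7.53 ± 0.57 for CG33509 (adjusted p = 9.99e-05), while Tip60dn over control gave -0.63 (adjusted p = 0.0911) and -0.96 (adjusted p = 0.0702).

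CG1494, on X, had 0.12, 0.13 and 0.26 CPM in Tip60wt, 13.1, 9.78 and 8.11 CPM in Tip60dn and 6.28, 5.54 and 8.56 CPM in control, a log2 fold change of -5.35 ± 0.33 over control (adjusted p = 2.67e-05). Spn47C, of the serpin family of protease inhibitors, differed in opposite directions in the transgene arms. It had 1.27, 0.95 and 0.67 CPM in Tip60wt, 15.2, 15.3 and 15.1 CPM in Tip60dn and 7.36, 7.96 and 7.47 CPM in control. Its log2 fold change over control was -2.97 ± 0.18 in Tip60wt (adjusted p = 2.28e-05) and 1.00 ± 0.16 in Tip60dn (adjusted p = 0.00124). The translation elongation factor gene eEF1alpha2 had 47.7, 46.8 and 62.5 CPM in Tip60wt, 290, 276 and 270 CPM in Tip60dn and 87.5, 71.1 and 94.8 CPM in control. Here too Tip60wt lay lowest and Tip60dn highest, although the Tip60wt log2 fold change of -0.69 ± 0.13 (adjusted p = 0.0152) lost the call without control replicate 1, control replicate 3 or Tip60wt replicate 2, with adjusted p of 0.0693 to 0.0763. CG4098 averaged 16.7 ± 2.31 CPM in Tip60wt, 28.0 ± 1.86 CPM in Tip60dn and 28.7 ± 1.35 CPM in control (SD, n = 3 each).

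**Figure D3:**
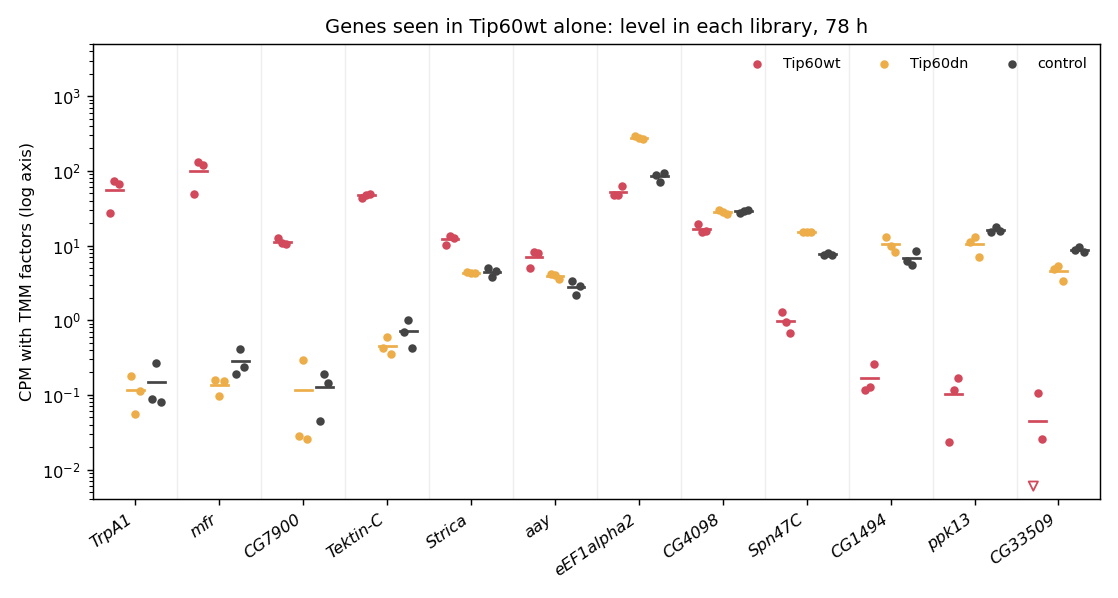
Level of the 6 highest and 6 lowest genes seen in Tip60wt alone in each of the 9 libraries at 78 h, in CPM on a log axis; points are libraries, short lines are means of 3 libraries, and the open triangle at the bottom is a library with 0 counts. Tip60dn and control points of TrpA1, mfr, CG7900 and Tektin-C lie at or below 1.01 CPM and Tip60wt points at 10.4 CPM or more.

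Some called genes lay beside one another. The called genes with a place in the annotation (425) formed 25 runs of 3 or more genes with gaps of at most 50 kb, which together held 88 genes. The number of runs was not set against chance, and some genes with large differences, such as CG9121, CG17186 and Mal-B2, had uncalled neighbours on both sides. So did Dnaaf3, although it counted in a run with GstE1 and GstE8 by the 50 kb rule. The largest run held 10 called genes among 28 tested on 3L from 8201078 to 8356296. Its members CG7366, tut, CG8006, eIF4E3, CG7213, Dscam4 and Culd were higher and shared. The gene eIF4E3, a testis-enriched translation initiation factor, had 0.69, 0.95 and 0.52 CPM in Tip60wt and 0.08, 0.20 and 0.10 CPM in Tip60dn, against 0.03, 0.02 and 0.03 CPM in control. Among these genes lay CG8012, CG13678 and CG13679, which were not called (adjusted p = 0.0516, 0.0529 and 0.0610). Their log2 fold changes in Tip60wt were -1.25, -1.42 and 1.32. CG8006 had 68 counts in Tip60wt and 1 in the 3 control libraries, a ratio of 69.3 (95% counting interval 12 to 2775). Further along the same run CG7201 and CG7194 were lower in Tip60wt, with log2 fold changes of -0.71 and -0.65. The bitter taste receptor gene Gr66a was a shared loss there, with a log2 fold change of -2.11 ± 0.32 in Tip60wt (adjusted p = 0.00571) and -1.10 in Tip60dn. The gene cert, which lies 129 bases past the end of Dscam4 on the opposite strand, had a log2 fold change of -0.02 (adjusted p = 0.871). The genes in this and the next paragraph that the naming rule did not give were chosen after their values were seen.

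TrpA1 (3L, 8894404 to 8905200) and mfr (3L, 8905918 to 8912671) lay between Mcm7 and Tsp66E, neither of them called. Mcm7, a subunit of the replicative helicase, ends 93 bases from TrpA1 and had 35.4, 34.5 and 30.7 CPM in Tip60wt against 34.0, 33.9 and 31.3 CPM in control, and Tsp66E, which overlaps the start of mfr on the other strand, had a log2 fold change of 0.30 ± 0.09 (adjusted p = 0.0987). On 2L, CG33509, ppk13 and CG14397 were lower together between 21084605 and 21094864. On 3R, CG13607, which lies within the span of Root, was also a shared loss with a log2 fold change of -3.50. On 3R as well, CHKov1, of a family of predicted choline kinase-like proteins, was higher in both arms, with 96.2, 110 and 115 CPM in Tip60wt and 83.6, 68.8 and 68.3 CPM in Tip60dn, against 48.8, 42.9 and 50.3 CPM in control. Its neighbour CHKov2 was called in Tip60wt alone, with 17.1, 17.4 and 16.5 CPM in Tip60wt, 10.2, 6.89 and 6.39 CPM in Tip60dn and 10.4, 7.85 and 10.1 CPM in control.

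The share of tested genes called differed between chromosome arms. It was 5.81% on 3L, 4.49% on chromosome 4, 4.41% on 3R, 4.34% on 2R and 4.11% on 2L, and 1.29% on X, where 22 of 1711 genes were called. Tip60dn against control called 43.0% on X and 43.6% to 45.1% on the other arms. The low share on X was also present at 48 h, with 0.927% on X and 2.22% to 5.4% elsewhere. Without control replicate 1 the X share was 0.284% and the others lay between 1.10% and 3.12%. Without Tip60wt replicate 1 it was 7.18%, against 8.25% to 11.1% elsewhere, so the gap on X was narrower there. No test was run of the difference between arms, since neighbouring genes are not independent.

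**Figure D4:**
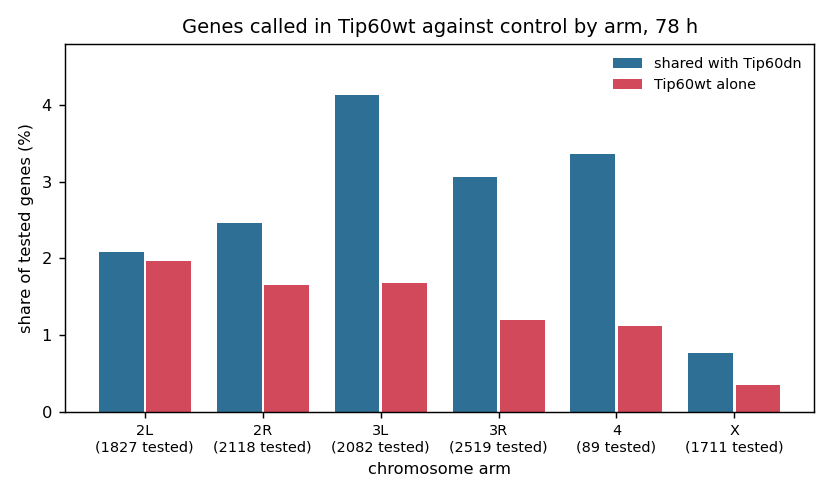
Share of the tested genes on each chromosome arm that were called in Tip60wt against control at 78 h, as bars from 0, for genes shared with Tip60dn and genes seen in Tip60wt alone; the number tested stands under each arm. The shared class reaches 4.13% on 3L and 0.76% on X, and the Tip60wt-alone class lies between 0.351% on X and 1.97% on 2L.

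The 48 h libraries share none with the 78 h comparison and gave a separate look at the same genes. Tip60wt against control at 48 h called 382 of 10693 genes (3.57%), 185 higher (1.73%) and 197 lower (1.84%). Of the 431 genes called at 78 h, 430 were tested at 48 h, 423 had the same sign, 226 were called in the same direction and 0 in the opposite one. Of the 272 shared genes 268 kept the sign and 134 were called, and of the 145 seen in Tip60wt alone 144 were tested, 141 had the same sign, 89 were called and 80 fell in the same class. The 48 h class also uses Tip60wt against Tip60dn at 48 h, which called 35.7% of the genes tested. In the direction of the 78 h difference, the median 48 h log2 fold change was 0.40 for shared genes and 0.50 for genes seen in Tip60wt alone. Without control replicate 1, 151 of the 203 genes called at 78 h were called in the same direction at 48 h.

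The genes with the largest differences at 78 h were also far from control at 48 h. TrpA1 averaged 69.95 CPM in Tip60wt at 48 h, against 0.10 CPM in control, and mfr averaged 123 CPM, against 0.14 CPM. Root averaged 1.13 CPM in Tip60wt and 0.58 CPM in Tip60dn at 48 h, against 34.4 CPM in control. The test of a change in the Tip60wt effect between 78 h and 48 h, over all 18 libraries, called 0 of 11173 genes (0%) with edgeR, where 461 (4.13%) had an unadjusted p under 0.05. With limma-voom it called 0, and 273 genes had an unadjusted p under 0.05. At 48 h the count was 203 without control replicate 1, 191 without control replicate 2, 206 without Tip60wt replicate 1 and 248 without Tip60wt replicate 3. Tip60wt replicate 2 at 48 h stood apart in fat body genes, with a summed level of 3331 CPM, against 306 to 447 CPM in the other 2 Tip60wt libraries and 327 to 467 CPM in control, and 277 genes were called without it.

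**Figure D5:**
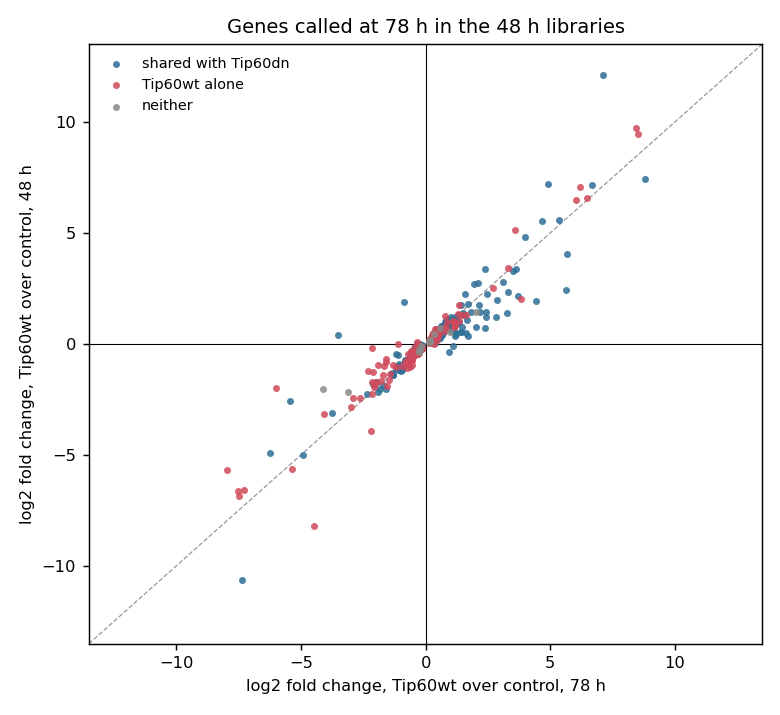
Log2 fold change of Tip60wt over control at 78 h (horizontal) and 48 h (vertical) for the 430 genes called at 78 h and tested at both durations, coloured by class; the dashed line marks equal values. Points lie near the line, with 423 of 430 on the same side of 0.

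The gene lists describe what the called genes are known for. Each Tip60wt count of the main test is read against the background of 2.09% higher and 1.97% lower. Each Tip60dn count is read against 22.4% higher and 21.7% lower. Counts at an unadjusted p under 0.05 are read against 20.4% of all genes tested. Those by DESeq2 are read against 470 higher and 491 lower of 10598 genes. Without Tip60wt replicate 1, 981 genes were called in all, 7.18% to 11.1% of those tested on each arm. Of 16 subunits of NuA4 only Tip60 itself was called, the list's median log2 fold change was -0.01, and 5 subunits had an unadjusted p under 0.05. DESeq2 called 2 of the 16 higher and 1 lower. Of 18 other histone acetyltransferases and deacetylases 0 were called by edgeR, 3 had an unadjusted p under 0.05 and DESeq2 called 1. Growth genes, many of which were lower in Tip60dn, gave few calls in Tip60wt. In the S phase list 0 of 32 were called in Tip60wt, against 2 higher and 21 lower in Tip60dn, with 8 at an unadjusted p under 0.05 in Tip60wt and 1 called lower by DESeq2. In the mitosis list 1 of 51 was higher in Tip60wt, against 42 lower in Tip60dn, and in ribosome biogenesis 0 of 31 were called in Tip60wt, against 3 higher and 25 lower in Tip60dn, with 10 at an unadjusted p under 0.05 in Tip60wt and 1 higher and 5 lower by DESeq2. Of 67 cytosolic ribosomal proteins 0 were called in Tip60wt by edgeR, 6 had an unadjusted p under 0.05 and DESeq2 called 1, against 52 higher in Tip60dn. Under upper quartile scaling the Tip60dn counts became 3 higher and 12 lower for S phase, 29 lower for mitosis, 3 higher and 19 lower for ribosome biogenesis and 63 higher for ribosomal proteins. Without Tip60wt replicate 1, the S phase list gave 5 lower in Tip60wt, and ribosome biogenesis gave 12 lower.

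The mitosis member was vih, a ubiquitin-conjugating enzyme that marks cyclins for degradation. It had 96.8, 101 and 96.1 CPM in Tip60wt, 77.3, 76.7 and 76.0 CPM in Tip60dn and 84.4, 80.3 and 86.7 CPM in control, with 30.6% of its exons opposite CG10654. Its log2 fold change over control was 0.23 ± 0.04 (adjusted p = 0.0111), and the call was lost without Tip60wt replicate 2 (adjusted p = 0.0620). Among cell cycle regulators 1 of 24 was called, Cdk2, the partner kinase of Cyclin E. It had 67.1, 61.9 and 58.4 CPM in Tip60wt and 58.9, 56.9 and 53.4 CPM in Tip60dn, against 75.9, 76.2 and 74.5 CPM in control, but 43.9% of its exons lie opposite CG17267 and the call was lost without any 1 of the control libraries, Tip60wt replicate 2 or Tip60wt replicate 3 (adjusted p of 0.0727 to 0.105).

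Detoxification was the list with most calls. Of 32 tested members 6 were higher and 1 lower in Tip60wt, and the list's median log2 fold change was 0.18, against 0.01 for all genes. The same 6 were higher, and the same 1 lower, without control replicate 1 and without Tip60wt replicate 1, where cnc joined them. At 48 h 3 of 33 were higher and 0 lower by edgeR, and GstE1, GstD9, Cyp6a17 and Cyp6a23 were not called there (adjusted p = 0.0736, 0.122, 0.508 and 0.633), with Cyp6a23 at a log2 fold change of 0.45 at 48 h and 1.20 at 78 h. GstD1, a glutathione S-transferase, had 769.5, 765 and 802 CPM in Tip60wt and 790, 854 and 814 CPM in Tip60dn, against 459, 475 and 473 CPM in control. All 6 transgene libraries lay above the control libraries, with a log2 fold change of 0.73 ± 0.04 in Tip60wt (adjusted p = 9.10e-06) and 0.80 ± 0.04 in Tip60dn.

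GstD3 had 106, 108 and 107 CPM in Tip60wt and 79.3, 87.0 and 82.5 CPM in Tip60dn, against 69.4, 72.9 and 70.9 CPM in control, so Tip60wt lay above Tip60dn (log2 difference 0.37 ± 0.04, adjusted p = 0.000228). GstD9, beside GstD1, differed the other way, with 47.4, 42.5 and 40.3 CPM in Tip60wt and 31.8, 28.9 and 27.3 CPM in Tip60dn, against 59.0, 60.4 and 56.6 CPM in control. GstE1 and GstE8, of the epsilon class of the same enzyme family, on 2R, were higher in Tip60wt alone. GstE1 had 24.3, 22 and 23.1 CPM in Tip60wt, 9.50, 9.38 and 8.61 CPM in Tip60dn and 11.9, 14.4 and 12.9 CPM in control. The cytochrome P450 genes Cyp6a17 and Cyp6a23, which lie side by side, were higher in both arms, with Cyp6a17 at 19.2, 17.4 and 16.4 CPM in Tip60wt and 20.3, 18.6 and 19.5 CPM in Tip60dn, against 11.5, 11.3 and 11.1 CPM in control. These families have close copies, and no source used here says how reads that fit several copies were counted, so single members are uncertain. GstD9, GstE1, GstE8 and both Cyp6a genes stand outside the naming rule and are the other called members of the list.

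Of 22 heat shock chaperones 2 were higher, both small heat shock proteins, and the list's median log2 fold change was 0.51. In the list 6 genes had an unadjusted p under 0.05, and DESeq2 called 3 higher. In 8 of the 22 all Tip60wt libraries lay above all control libraries, as they did for 12.2% of all genes tested. Hsp26 had 252, 300 and 279 CPM in Tip60wt, 134, 126 and 183 CPM in Tip60dn and 109, 146 and 127 CPM in control, so it was seen in Tip60wt alone (log2 fold change 1.12 ± 0.15, adjusted p = 0.00271). Hsp67Bc had 7.74, 8.48 and 8.07 CPM in Tip60wt and 5.88, 5.05 and 5.47 CPM in Tip60dn, against 3.61, 4.59 and 3.78 CPM in control. At 48 h neither was called (adjusted p = 0.299 and 0.195), with log2 fold changes of 0.97 and 1.22. Hsp23 and Hsp27, small heat shock genes near Hsp26 on 3L, were chosen after their values were seen, and neither was called. Hsp23 had 1208, 1898 and 2233 CPM in Tip60wt against 1281, 1508 and 1513 CPM in control (log2 fold change 0.31 ± 0.22). Hsp27 had 1713, 1816 and 2048 CPM in Tip60wt against 1785, 1736 and 1944 CPM in control (0.03 ± 0.07). The heat shock genes Hsp83 and Hsp68, chosen in the same way, were not called either, with log2 fold changes of 0.48 ± 0.20 and 0.96 ± 0.93. Hsp83 had 2143, 3053 and 2754 CPM in Tip60wt against 1898, 1779 and 2016 CPM in control.

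Of 25 genes in the germline and piRNA list 1 was higher and 2 lower, all in Tip60wt alone. The piRNA helicase spn-E had 11, 11.3 and 11.7 CPM in Tip60wt, 21.4, 20.4 and 20.0 CPM in Tip60dn and 17.3, 17.4 and 16.8 CPM in control, a log2 fold change of -0.60 ± 0.05 over control (adjusted p = 0.000186) and 0.26 ± 0.05 in Tip60dn. The 3 groups did not overlap, with Tip60wt lowest. The Argonaute gene piwi, the other loss, averaged 2.50 ± 0.30 CPM in Tip60wt, 4.16 ± 0.60 CPM in Tip60dn and 4.15 ± 0.36 CPM in control (SD, n = 3 each). The gain was del, a subunit of the complex that licenses piRNA cluster transcription, with 27.5, 44.1 and 40.0 CPM in Tip60wt, 26, 21 and 21.3 CPM in Tip60dn and 20.1, 21.7 and 22.9 CPM in control. Its call was lost without any 1 of the control libraries, Tip60wt replicate 2 or Tip60wt replicate 3, with adjusted p of 0.0770 to 0.118. The piwi call was lost without control replicate 1. This list does not hold the germline genes SoYb and tut, which were shared calls, with log2 fold changes of -1.32 and 3.62 in Tip60wt.

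Of 36 neuronal genes 2 were higher and 1 lower in Tip60wt, against 19 higher and 2 lower in Tip60dn. The synaptic vesicle priming gene unc-13 had 607, 596 and 628 CPM in Tip60wt and 1291, 1274 and 1308 CPM in Tip60dn, against 444, 421 and 431 CPM in control. The 3 groups were apart and in the order control, Tip60wt, Tip60dn, with log2 fold changes over control of 0.50 ± 0.03 in Tip60wt (adjusted p = 5.13e-05) and 1.58 ± 0.04 in Tip60dn. Of its exons 25.2% lie opposite an antisense RNA. The vesicle fusion gene nSyb, with 0.83 ± 0.12 CPM in Tip60wt and 1.54 ± 0.17 CPM in Tip60dn, against 0.38 ± 0.08 CPM in control (SD, n = 3 each), had the same order and lost the call without control replicate 1. Its partner Syx1A was lower in Tip60wt, with 41.1, 40.4 and 42.2 CPM in Tip60wt, 53, 57.4 and 58.6 CPM in Tip60dn and 48.3, 49.3 and 49.5 CPM in control. The Syx1A call was lost without control replicate 3 (adjusted p = 0.0587) or Tip60wt replicate 2 (adjusted p = 0.0647), and 10.7% of its exons are shared with eIF4EHP.

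In the JNK and regeneration list 1 of 27 was higher and 1 lower in Tip60wt, against 18 higher and 2 lower in Tip60dn. The higher one was scaf, a secreted protease homologue transcribed downstream of JNK in fly tissues, with 92.7, 93.4 and 106 CPM in Tip60wt and 78.4, 77.1 and 82.1 CPM in Tip60dn, against 60.7, 66.0 and 59.5 CPM in control. It is one of the list genes that lay further from control in Tip60wt than in Tip60dn (log2 difference 0.30 ± 0.06, adjusted p = 0.00490). The lower one was the stress gene Gadd45, also in the DNA repair list, with 24.4, 19.0 and 15.9 CPM in Tip60wt, 55.0, 49.1 and 43.3 CPM in Tip60dn and 29.7, 31.1 and 31.7 CPM in control. Gadd45 lost the call without any 1 of the control libraries, Tip60wt replicates 2 and 3 or Tip60dn replicate 2, with adjusted p of 0.0563 to 0.139.

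Of 31 DNA repair and checkpoint genes 2 were lower, Gadd45 and Fancd2. Fancd2, of interstrand crosslink repair, averaged 67.6 ± 4.09 CPM in Tip60wt and 62.0 ± 4.05 CPM in Tip60dn, against 84.3 ± 0.61 CPM in control (SD, n = 3 each). Without Tip60wt replicate 1, where 981 genes were called in all, 6 genes of this list were lower. Without control replicate 1, 0 genes of this list were called by edgeR. Fancd2 also lost the call without control replicate 3, Tip60wt replicate 2 or Tip60wt replicate 3 (adjusted p of 0.0506 to 0.0683 over the 4). In the list 8 genes had an unadjusted p under 0.05, and DESeq2 called 6 lower. The small differences in the other lists were near the threshold as well. Diap2, an inhibitor of apoptosis, was the call among 19 apoptosis genes (log2 fold change 0.22 ± 0.04, adjusted p = 0.0244). That list does not hold the caspase gene Strica, called in Tip60wt alone with a log2 fold change of 1.44 (adjusted p = 0.000389). Mer, an upstream activator of the Hippo pathway, was the call among 13 Hippo genes (0.16 ± 0.03, adjusted p = 0.0375), and Sce, a RING subunit of Polycomb repressive complex 1, was the call among 24 Hox and Polycomb genes (0.14 ± 0.03, adjusted p = 0.0497). Of 59 wing patterning genes the proximal wing factor zfh2 was lower (-0.20 ± 0.05, adjusted p = 0.0447), with 18.7% of its exons opposite Tdg. Diap2, Mer, Sce and zfh2 each lost the call without control replicate 1, control replicate 3, Tip60wt replicate 2 or Tip60wt replicate 3. The adjusted p was 0.0787 to 0.105 for Diap2, up to 0.151 for Mer, up to 0.193 for Sce and up to 0.170 for zfh2. Mer, Sce and zfh2 also lost it without control replicate 2 and without 1 or more Tip60dn libraries.

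Among the remaining lists, the insulin-binding protein ImpL2 was higher in the ecdysone and timing list (1 of 25), with 124, 121 and 118 CPM in Tip60wt and 117, 104 and 99.2 CPM in Tip60dn, against 89.3, 84.9 and 94.1 CPM in control. Of its exons 61.9% are shared with CG46460 on the same strand. Pgm1, a phosphoglucomutase, was higher in the glycolysis list (1 of 18), with 34.7, 35.2 and 35.6 CPM in Tip60wt, 26.2, 26.7 and 26.2 CPM in Tip60dn and 29.5, 30.0 and 30.1 CPM in control. Cpr49Ah, a cuticle protein, was higher among 19 cuticle genes, with 6.89, 6.30 and 5.67 CPM in Tip60wt, 2.78, 3.27 and 3.60 CPM in Tip60dn and 3.65, 2.32 and 2.54 CPM in control, a call lost without control replicate 3 (adjusted p = 0.0507). Tektin-C was the call among 23 cilia and axoneme genes, a list that does not hold Root or Dnaaf3. Both of those were called, with log2 fold changes of -6.25 and 7.10 in Tip60wt. AttA, an antimicrobial peptide, was the call among 21 immunity genes on 2 counts in Tip60wt against 41 in control (ratio 0.0497, 95% counting interval 0.00582 to 0.191). AttA has a close copy, AttB, and its call was lost without any 1 library other than Tip60wt replicate 1 or 3 (adjusted p of 0.0565 to 0.132).

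Few markers of other tissues were called in Tip60wt. Of 16 hemocyte genes 0 were called in Tip60wt by edgeR (3 at an unadjusted p under 0.05, 2 lower by DESeq2) and 9 were higher in Tip60dn, with summed levels of 2100 to 2561 CPM in Tip60wt and 2879 to 3518 CPM in Tip60dn, against 2298 to 2442 CPM in control. The list's median log2 fold change in Tip60wt was -0.49, and in 7 of the 16 all Tip60wt libraries lay below all control libraries, as they did for 14.1% of all genes tested, while 0 lay above. NimC1, a phagocytosis receptor of blood cells, had 0.99, 0.91 and 1.5 CPM in Tip60wt and 1.54, 5.20 and 5.13 CPM in Tip60dn, against 3.05, 3.40 and 3.15 CPM in control (log2 fold change in Tip60wt -1.5 ± 0.41, adjusted p = 0.0797). Hml, He and Sr-CI, other blood cell genes, had log2 fold changes of -0.56, -0.99 and -0.78 in Tip60wt, none of them called, and these 4 genes were chosen after their values were seen. At 48 h 3 of 17 hemocyte genes were lower, and the part of blood cells in the other differences was not tested. The sums rest mostly on Ppn and Ance. Ppn, a blood cell matrix protein, had 825, 1037 and 1124 CPM in Tip60wt and 1240, 1135 and 1119 CPM in Tip60dn, against 988, 873 and 1061 CPM in control. Of 28 muscle and myoblast genes and of 10 fat body genes 0 were called by edgeR and by DESeq2 (2 and 4 at an unadjusted p under 0.05), and summed muscle levels were 3022 to 3226 CPM in Tip60wt against 3208 to 3319 CPM in control. The fat body gene Fbp1 had 74.7, 13.8 and 102 CPM in Tip60wt against 97.8, 123 and 327 CPM in control. Of 8 tracheal genes 2 were higher by edgeR, the chitin deacetylases verm and serp, while DESeq2 called 2 higher and 1 lower. The list's median log2 fold change was 0.13. The gene serp had 155, 186 and 185 CPM in Tip60wt and 189, 204 and 199 CPM in Tip60dn, against 122, 130 and 134 CPM in control. Gasp, chosen after its values were seen, had 169.5, 128 and 124 CPM in Tip60wt against 182, 168.9 and 171 CPM in control. Its log2 fold change was -0.31 (adjusted p = 0.130), and it was called lower without Tip60wt replicate 1. Tracheal sums were 1876 to 2063 CPM in Tip60wt, 2251 to 2327 CPM in Tip60dn and 1754 to 1892 CPM in control, and the part of tracheal cells in these differences was not tested. The verm call was lost without control replicate 1.

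In the salivary gland list 0 of 9 tested genes were called by edgeR and by DESeq2, 7 had an unadjusted p under 0.05, and the median log2 fold change was -5.05, with the high level in control replicate 1 alone. The male-specific dosage compensation RNA roX2 was higher in Tip60wt, with 12.4, 19.7 and 15.5 CPM in Tip60wt and 20.6, 27.4 and 26.8 CPM in Tip60dn, against 5.39, 8.40 and 8.55 CPM in control. The partner RNA roX1 had 320, 373 and 309 CPM in Tip60wt and 434, 465 and 520 CPM in Tip60dn, against 209, 273 and 330 CPM in control, and did not pass the test in Tip60wt (adjusted p = 0.276). Both RNAs are made in males, and the sex of the pooled larvae was not stated. At 48 h roX2 averaged 15.7 CPM in Tip60wt and 17.0 CPM in control. The roX2 call was lost without control replicate 1, control replicate 3, Tip60wt replicate 2 or Tip60wt replicate 3 (adjusted p of 0.0543 to 0.0868). Summed levels of 13 male markers, 4 of which were tested, were 376 to 447 CPM in Tip60wt and 514 to 617 CPM in Tip60dn. In control they were 255 to 388 CPM. The sums rest mostly on roX1. Of the 13 markers, 6 in Tip60wt, 7 in Tip60dn and 8 in control had 0 counts in every library of the group. The part of the sex ratio in the roX2 difference was not tested.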

How the data were processed

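Polyadenylated RNA of pooled wing discs was sequenced, and the deposited tables, 1 for each duration, hold whole-number counts per FlyBase gene identifier, as the authors counted them. Per the submitters' processing notes, reads were handled on build BDGP6 with FastQC, featureCounts, limma and edgeR 3.13.4 among the tools. No source used here names the aligner or says how strand and reads that fit several places were treated. Each table lists 17559 genes, of which 17253 matched release 115 of the Ensembl annotation, the source of symbols and places. The other 306 were tested where they passed the filter and carry no name.

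Counts were analysed in R 4.3.3 with edgeR 4.0.16, and alternatives used limma 3.58.1 and DESeq2 1.42.0. All 9 libraries of a duration entered 1 fit with 1 term, the group, after filterByExpr (minimum 10 counts) and TMM scaling (trimmed mean of M values). The quasi-likelihood test was two-sided, and the text speaks of a call where the Benjamini-Hochberg adjusted p lies below 0.05, whatever the fold. SEs were obtained from the log2 fold change and the square root of its F value. CPM were computed with the TMM factors, and SDs are over 3 libraries. Counting intervals cover counting error only. A run joins called genes no more than 50 kb apart. The scripts were tested on simulated data.

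The members, the 30 gene lists (870 entries, 826 matched) and the tests were chosen with earlier results of these data known. Named were Tip60, w and y, the 6 highest and 6 lowest log2 fold changes of each class (a mean of 5 CPM or more in the group with more, libraries not overlapping), up to 2 called members of each process list by adjusted p, and the 2 tissue markers of each list with the highest level. Other genes, among them the remaining called members of a list, were chosen after their values were seen. The result of 1 gene given by the naming rule is not reported here.

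Replicate numbers were checked for pairing by correlating residuals of same-numbered libraries. Between Tip60wt and control these were 0.07, -0.02 and 0.01 at 78 h and 0.22, 0.06 and 0.22 at 48 h, so these were not read as pairs, while Tip60wt and Tip60dn at 78 h gave 0.29, 0.35 and 0.32. Alternatives were other scalings, filters, tools, thresholds, the replicate block and leaving out each library. Counts by list and arm without control replicate 1 or Tip60wt replicate 1, and list counts by DESeq2 and limma-voom, were added after seeing the data.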

Additional observations from a re-analysis of the deposited data

How the results depend on the processing

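At 78 h, Tip60wt against control called 431 genes in the main test, and DESeq2 called 961, with 590 shared and 291 in Tip60wt alone, and 718 at 48 h. At an adjusted p under 0.01 the counts were 192 for Tip60wt against control, 2934 for Tip60dn against control, 2292 for Tip60wt against Tip60dn, 115 shared, 68 in Tip60wt alone and 157 at 48 h. With a log2 fold change of at least 1, 80 shared and 51 Tip60wt-alone genes were left, since fewer genes qualify. Leaving out 1 library at a time gave 203 to 981 genes for Tip60wt against control, 127 to 631 shared, 73 to 311 in Tip60wt alone, 3610 to 5138 for Tip60dn against control, 2949 to 3917 for Tip60wt against Tip60dn and 191 to 525 at 48 h. The cause of these moves was not tested. Relative log expression scaling (426), upper quartile scaling (438), no filter on low counts (370), a 5 CPM minimum (353), limma-voom (392) and a fit of the 6 libraries alone (377) stayed within 1.5 times of 431. With the replicate number as a block, 481 genes were called for Tip60wt against control, 4665 for Tip60dn against control, 3980 for Tip60wt against Tip60dn, 320 shared, 147 in Tip60wt alone and 334 at 48 h. The block, which pairs same-numbered libraries, ended the call of AttA, zfh2, Mer and Sce, with adjusted p of 0.0595, 0.0558, 0.0650 and 0.0759, and changed no other call of a named gene. Of 47 named genes that were called, 32 kept the call when each library was left out in turn and 15 lost it without at least 1. No named gene that was called changed sign under any alternative run. The test of a change between durations called 0 genes under each alternative run. Depth limits genes such as CG7213 and AttA, with 3 counts or fewer in 1 group.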

Other observations

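Some genes outside the naming rule, chosen after their values were seen, were low in Tip60wt and high in Tip60dn. RunxB, a transcription factor of the Runt family on X, was counted 0 times in the 3 Tip60wt libraries and had 1.84, 1.71 and 2.52 CPM in Tip60dn and 0.44, 0.37 and 0.26 CPM in control. Against a floor of 3 counts over the Tip60wt group it was at least 30.8-fold lower in Tip60wt than in control. The adjacent genes CG6790 and CG5342 on 3R had the same order. CG6790 had 0.33, 0.29 and 0.34 CPM in Tip60wt, 3.15, 3.20 and 5.09 CPM in Tip60dn and 1.31, 1.42 and 1.32 CPM in control, and CG5342 averaged 0.31 ± 0.13 CPM in Tip60wt, 2.47 ± 0.59 CPM in Tip60dn and 1.06 ± 0.03 CPM in control (SD, n = 3 each).

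Other genes chosen after their values were seen had other patterns, mostly at low levels. The fatty acid elongase genes Elo68alpha and Elo68beta, side by side on 3L, were higher in both transgene arms, with Elo68beta at 0.43, 0.30 and 0.22 CPM in Tip60wt and 0.84, 0.91 and 0.87 CPM in Tip60dn, against 0.04, 0.02 and 0.03 CPM in control. The noncoding gene CR45228 on 2R, beside Spn47C, had 1 count in Tip60wt and 253 in control (ratio 0.00403, 95% counting interval 0.000102 to 0.0226), while its Tip60dn libraries had 0.86, 0.99 and 1.10 CPM. CG13032 on 3L had 4.68, 4.07 and 4.35 CPM in Tip60wt, 0.04, 0.14 and 0.05 CPM in Tip60dn and 0.04, 0.13 and 0 CPM in control. CR43087 on 3L was nearly absent from both transgene arms, with 4 counts in Tip60wt and 731 in control (ratio 0.00557, 95% counting interval 0.00151 to 0.0143).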
